A study of Mus musculus with 15 samples.

Results

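Small leucine-rich proteoglycans are secreted proteins built of leucine-rich repeats, most of them carrying glycosaminoglycan chains. The 8 followed here were biglycan (Bgn), decorin (Dcn), asporin (Aspn), fibromodulin (Fmod), lumican (Lum), PRELP (Prelp), osteomodulin (Omd) and osteoglycin (Ogn), taken by gene symbol from the 24015 genes listed in each library. RNA was sequenced from fibroblasts of c57bl/6 mouse embryos (MEFs, cultured cells that make connective tissue), grown in DMEM with 10% donor bovine serum. They were wild type, labelled Nsd2(+/+) (WT), or knockout, labelled Nsd2(-/-) (KO), for NSD2, a histone H3 methyltransferase. Naive cells had seen no interferon earlier. Pretreated cells had been given interferon for 3 h, washed and left without it for 24 h. Both kinds were taken at 0 h or after 2 h with mouse recombinant IFNβ at 100 units/ml, so that the pretreated 2 h groups met interferon again. Each of the 8 groups had 2 libraries, except KO naive 2 h with 1, which gave 15 libraries. The labels do not say from how many embryos or cultures the libraries came, so the spread behind the p-values is that between libraries and could be technical.

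In the extracellular matrix these proteins bind collagen fibrils and help to set fibril width and spacing, and several hold growth factors of the TGF-β family. Biglycan, decorin and asporin form class I of the family, and biglycan and decorin carry chondroitin or dermatan sulfate chains. Fibromodulin, lumican, PRELP and osteomodulin form class II, of which fibromodulin, lumican and osteomodulin carry keratan sulfate, and osteoglycin belongs to class III. Fibroblasts are a main source of decorin and biglycan in connective tissue.

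The libraries held 17170845 to 44116418 counts in genes, and all 8 members were among the 13802 genes that passed the filter on low counts. Levels are given as counts scaled to library size (CPM, that is, counts for each 1000000 counts in genes), and a level of 3 counts lay between 0.0680 and 0.175 CPM, depending on the library. Changes are log2 changes ± SE from edgeR's quasi-likelihood test, with p-values adjusted by Benjamini-Hochberg over all genes tested and called below 0.05. The fit scales libraries by trimmed means (TMM), which CPM does not, so a fitted change can differ from the ratio of the CPM values. The targeted gene, listed as Whsc1, had 106 to 151 CPM in WT and 91.5 to 124 CPM in KO libraries, with a fitted change of -0.28 ± 0.025 in KO over the mean of conditions (edgeR adjusted p = 2.0e-11). Counting reads over all of Whsc1 cannot test a deletion of part of it. Rn45s, a ribosomal transcript, and Lars2 made up 10.6% to 29.4% of gene counts, and were lowest in 3 libraries (WT naive 0 h replicate 1, WT pretreated 2 h replicate 1 and KO pretreated 0 h replicate 2). Fibroblast markers summed to 12608 to 20277 CPM in WT and 11114 to 13941 CPM in KO, with a median over 1 CPM for 8 of 9 in WT and 9 of 9 in KO. Thy1, a fibroblast surface marker, was near the level of 3 counts in WT, at 0.0474 to 0.175 CPM, against 29.6 to 33.9 CPM in KO. Pdgfra, a growth factor receptor of fibroblasts, had 4.49 to 7.40 CPM in WT and 37.7 to 124 CPM in KO. In bulk RNA, fewer cells of a type and less RNA per cell cannot be told apart.

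Genes of the family lie in clusters, and the order of genes in the GRCm38.p6 assembly was used to see which members adjoin. Dcn and Lum are neighbours on chromosome 10, next to the family member Kera. Prelp and Fmod are neighbours on chromosome 1, next to Optc. Aspn, Omd and Ogn stand in a row on chromosome 13, after Ecm2 and within the span of Cenpp, and Bgn stands alone on chromosome X between Haus7 and Atp2b3. RefSeq promoter sequences (GRCm38.p6) were matched for 6 of the 8 members. The 250 bases before the start site are shown for Fmod, Prelp and Ogn, which fell after pretreatment in WT and in KO cells at 0 h, and for Aspn and Omd, the chromosome 13 neighbours of Ogn. Each runs 5′ to 3′ on the gene's own strand, and capitals mark matches to the motifs named next.
Fmod (chr1:134037004-134037253, plus strand): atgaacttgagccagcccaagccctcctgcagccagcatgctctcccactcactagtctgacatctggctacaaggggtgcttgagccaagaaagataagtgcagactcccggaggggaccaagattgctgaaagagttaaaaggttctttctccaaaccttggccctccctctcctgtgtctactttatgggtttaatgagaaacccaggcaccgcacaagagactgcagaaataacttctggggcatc
Prelp (chr1:133921402-133921651, minus strand): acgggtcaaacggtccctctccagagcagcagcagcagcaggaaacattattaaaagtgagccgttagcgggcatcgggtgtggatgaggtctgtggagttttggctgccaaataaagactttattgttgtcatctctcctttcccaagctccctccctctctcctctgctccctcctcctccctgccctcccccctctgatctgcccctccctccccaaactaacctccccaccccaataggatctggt
Ogn (chr13:49607765-49608014, plus strand): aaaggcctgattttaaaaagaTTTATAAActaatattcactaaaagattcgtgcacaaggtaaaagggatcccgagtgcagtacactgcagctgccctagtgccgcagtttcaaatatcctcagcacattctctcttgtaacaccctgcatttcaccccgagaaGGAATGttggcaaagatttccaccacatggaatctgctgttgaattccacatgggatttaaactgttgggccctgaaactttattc
Aspn (chr13:49544193-49544442, plus strand): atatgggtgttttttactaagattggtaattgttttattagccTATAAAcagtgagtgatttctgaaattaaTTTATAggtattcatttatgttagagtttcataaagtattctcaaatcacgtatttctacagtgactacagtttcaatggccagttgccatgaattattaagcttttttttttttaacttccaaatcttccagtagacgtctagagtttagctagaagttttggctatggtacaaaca
Omd (chr13:49582212-49582461, plus strand): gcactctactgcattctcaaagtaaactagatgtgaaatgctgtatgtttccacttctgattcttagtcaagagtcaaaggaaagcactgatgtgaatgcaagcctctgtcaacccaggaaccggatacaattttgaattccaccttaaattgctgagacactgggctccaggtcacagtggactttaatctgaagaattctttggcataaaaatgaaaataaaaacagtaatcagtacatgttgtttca

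Each window was searched on both strands for 5 motifs. These were the core of the interferon-stimulated response element (GAAA, NN and GAAA in a row, in 2.98% of 32851 promoter windows of this length), the interferon-gamma activated site (TTCNNNGAA, in 7.02%), AP-1 (TGANTCA, in 6.75%), TEAD (GGAATG, in 12.6%) and the TATA box (TATAAA, in 12.4%). No window of the 6 held either interferon motif or the AP-1 motif in these letters. The Ogn window held GGAATG from -86 to -81 counted from the start site, and TATAAA from -227 to -222, overlapped by its reverse complement TTTATA from -229 to -224. The Aspn window held TATAAA from -207 to -202 and TTTATA from -178 to -173. Fmod, Prelp, Omd and Bgn windows held none of the 5. A match is a description of the letters and not a bound site.

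Biglycan made up most of the family's transcripts. Divided by exon length, the Bgn level was 309 ± 41.9 CPM per kb in WT naive cells at 0 h (SD, n = 2) and 428 ± 10.0 CPM per kb in KO naive cells at 0 h (SD, n = 2). On this scale it ranked the highest of the 8 in each of the 8 groups, and its counts were 91.2% to 97.1% of all counts on the members in a library. In WT naive cells at 0 h the next were Ogn at 15.3 ± 1.05 and Dcn at 10.5 ± 0.0918 CPM per kb (SD, n = 2). After pretreatment Dcn, at 9.59 ± 0.232 CPM per kb, stood above Ogn, at 5.20 ± 0.609 CPM per kb (SD, n = 2). In KO naive cells at 0 h the order was Bgn, Ogn (16.8 ± 0.830 CPM per kb), Aspn (6.16 ± 0.438), Prelp (3.62 ± 0.427) and Dcn (2.30 ± 0.213), each with SD and n = 2. Dcn therefore ranked 3 in WT and 5 in KO cells of that condition, and Aspn 7 and 3. Omd, Fmod, Aspn and Prelp lay between 0.259 and 0.929 CPM per kb in WT naive cells at 0 h. Among these, Prelp at 0.929 ± 0.106 and Omd at 0.738 ± 0.0915 CPM per kb did not overlap, but differed by less than the sum of their SDs. Lum had the lowest level per length in every WT group and Fmod in every KO group. In both KO pretreated groups, Lum (0.111 ± 0.0448 and 0.128 ± 0.0768 CPM per kb) and Fmod (0.0872 ± 0.0352 and 0.0919 ± 0.120 CPM per kb) overlapped.

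**Figure D1:**
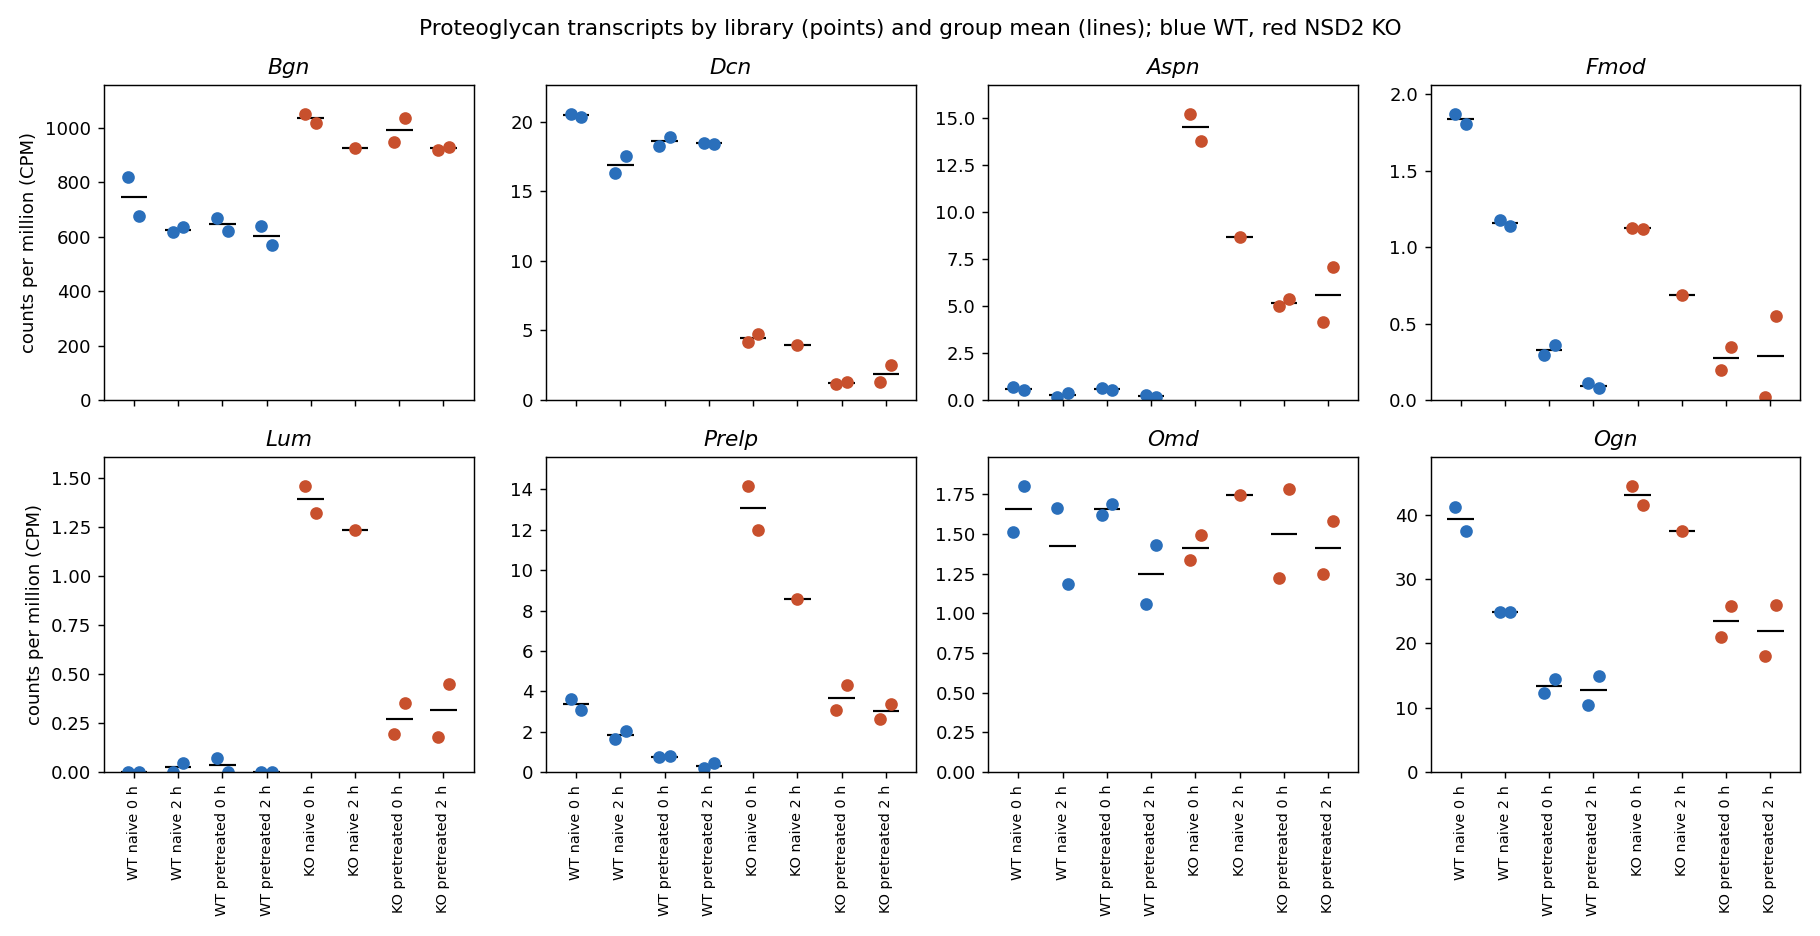
Levels of the 8 proteoglycan transcripts in CPM (vertical axis, linear from 0, a different scale for each gene) in the 8 groups, with 1 point per library and a line at the group mean, blue for WT and red for KO. Dcn lay between 16.3 and 20.6 CPM in WT libraries and between 1.17 and 4.76 CPM in KO libraries, while Aspn, Lum and Bgn were higher in every KO library than in any WT library.

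Earlier interferon, with a day without it, was followed by lower levels of part of the family. In WT cells at 0 h, Fmod, Prelp and Ogn were lower after pretreatment, 3 of 8 members, where 11.4% of all genes tested were called lower, 12.6% higher and 24.0% in either direction. In KO cells at 0 h, 6 of 8 members fell, adding Dcn, Lum and Aspn, where 10.6% of all genes were called lower, 11.1% higher and 21.7% in either direction. No member was called higher in either. Of Dcn, Lum and Aspn, only Dcn was called in the test of the difference between genotypes. Lum had at most 2 counts in any WT library, so a fall could not be seen there. The median change was -0.05 over the 7 members with counts enough for a change in WT (Lum left out) and -1.64 over the 8 in KO, beside -0.0036 and -0.01 over all genes tested. These counts stayed at 3 and at 6 when any 1 library, or the 3 libraries low in Rn45s and Lars2, were left out. Scaled by library totals alone, the median of all genes moved by -0.18 in WT, and 8.52% of the called genes were higher in place of 52.4% (39.1% in place of 51.2% in KO), while the counts of members stayed at 3 and 6.

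Prelp, thought to anchor basement membranes to the collagen beneath them, had 3.63 and 3.09 CPM in the WT naive 0 h libraries and 0.737 and 0.792 CPM in the WT pretreated 0 h libraries. In KO cells it had 14.2 and 12.005 CPM in naive and 3.06 and 4.30 CPM in pretreated libraries at 0 h. Naive and pretreated libraries did not overlap in either genotype. The fitted change was -1.96 ± 0.26 in WT (edgeR adjusted p = 1.1e-06) and -1.82 ± 0.14 in KO (adjusted p = 7.6e-11), and the difference between the genotypes was 0.14 ± 0.31 (adjusted p = 0.89). At 2 h, Prelp had 1.63 and 2.04 CPM in WT naive against 0.183 and 0.453 CPM in WT pretreated libraries, and 8.56 CPM in the KO naive library against 2.65 and 3.37 CPM in KO pretreated libraries. The levels were again lower in every pretreated library, with changes of -2.53 ± 0.36 in WT (adjusted p = 3.0e-06) and -1.57 ± 0.18 in KO (adjusted p = 3.3e-07).

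Ogn, also known as mimecan, fell in the same 4 comparisons. Its WT libraries had 41.3 and 37.4 CPM naive and 12.2 and 14.4 CPM pretreated at 0 h, and its KO libraries had 44.5 and 41.5 CPM naive and 21.0 and 25.9 CPM pretreated. Naive and pretreated libraries lay apart in both, and the KO pretreated libraries lay above the WT pretreated ones. The change was -1.39 ± 0.14 in WT (edgeR adjusted p = 9.7e-09) and -0.87 ± 0.12 in KO (adjusted p = 3.7e-06). The difference of 0.52 ± 0.18 between genotypes was not called (adjusted p = 0.14), and adjusted p ranged from 0.00012 to 0.72 over the alternatives. At 2 h, Ogn had 24.8 and 24.9 CPM in WT naive and 10.5 and 15.01 CPM in WT pretreated libraries, a change of -0.99 ± 0.15 (adjusted p = 4.4e-06). The KO naive library had 37.5 CPM and the KO pretreated libraries 18.02 and 25.9 CPM, a change of -0.83 ± 0.15 (adjusted p = 0.00015).

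Fmod, a keratan sulfate proteoglycan that binds collagen I and II, was low throughout. It had 1.87 and 1.81 CPM in WT naive and 0.295 and 0.360 CPM in WT pretreated libraries at 0 h, and 1.13 and 1.12 CPM in KO naive against 0.195 and 0.350 CPM in KO pretreated libraries. Pretreated libraries were lower than naive ones in both genotypes, with changes of -2.28 ± 0.45 in WT (edgeR adjusted p = 0.00034) and -2.05 ± 0.48 in KO (adjusted p = 0.0024). At 2 h it had 1.18 and 1.14 CPM in WT naive and 0.110 and 0.0754 CPM in WT pretreated libraries, a change of -3.63 ± 0.65 (adjusted p = 7.9e-05) that rests on 5 counts in both pretreated libraries together. In KO cells at 2 h the naive library had 0.685 CPM and the pretreated ones 0.0227 and 0.551 CPM. These were 1 and 16 counts, and the change of -1.56 ± 0.65 was not called (adjusted p = 0.096).

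Dcn, the proteoglycan named for decorating collagen fibrils, differed between the genotypes in its change with pretreatment. It had 20.6 and 20.3 CPM in WT naive and 18.3 and 18.9 CPM in WT pretreated libraries at 0 h, a fitted change of 0.05 ± 0.11 that was not called (edgeR adjusted p = 0.81). The WT naive 0 h replicate 1 library had the highest TMM factor, 1.22, which lowers its scaled level. KO libraries had 4.17 and 4.76 CPM naive and 1.17 and 1.29 CPM pretreated, a change of -1.86 ± 0.21 (adjusted p = 1.6e-07). Among the 4 groups at 0 h, the KO pretreated libraries had the lowest levels and overlapped with no other group. The test of the difference between genotypes gave -1.91 ± 0.24 (adjusted p = 6.2e-06), and Dcn was the 1 member of 8 called in it, where 3.22% of all genes tested were called, 1.51% lower and 1.71% higher. Leaving out any 1 library kept this difference between -1.75 and -2.01, called each time. At 2 h, Dcn had 16.3 and 17.5 CPM in WT naive and 18.5 and 18.4 CPM in WT pretreated libraries, a fitted change of 0.10 ± 0.11 (adjusted p = 0.58). In KO cells at 2 h the naive library had 3.94 CPM and the pretreated ones 1.29 and 2.51 CPM, a change of -1.17 ± 0.24 (adjusted p = 0.00085).

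Lum, the keratan sulfate proteoglycan of cornea and dermis and the chromosomal neighbour of Dcn, was all but uncounted in WT cells, with 0, 0, 0, 1, 2, 0, 0 and 0 counts in the 8 libraries. In KO cells it had 1.46 and 1.32 CPM in naive and 0.195 and 0.350 CPM in pretreated libraries at 0 h, from 35, 53, 7 and 10 counts. The KO pretreated libraries lay below the naive ones, with a change of -2.34 ± 0.42 (edgeR adjusted p = 0.00017). At 2 h the KO naive library had 1.23 CPM and the pretreated ones 0.181 and 0.447 CPM, a change of -2.11 ± 0.49 (adjusted p = 0.0030). WT levels were at or under the floor of 3 counts in naive and pretreated cells, so no change with pretreatment could be given there.

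Aspn, which binds collagen and TGF-β, had 0.697 and 0.524 CPM in WT naive and 0.626 and 0.540 CPM in WT pretreated libraries at 0 h. These overlapped, with a change of 0.07 ± 0.43 (edgeR adjusted p = 0.94). KO libraries had 15.2 and 13.8 CPM naive and 4.98 and 5.39 CPM pretreated, a change of -1.46 ± 0.15 (adjusted p = 1.3e-08). The difference between the genotypes, -1.53 ± 0.47, was not called (adjusted p = 0.074, and 0.0041 to 0.35 over the alternatives). At 2 h the WT libraries had 0.181 and 0.379 CPM naive and 0.292 and 0.151 CPM pretreated, and the KO libraries had 8.66 CPM naive and 4.13 and 7.05 CPM pretreated. The change was -0.25 ± 0.69 in WT (adjusted p = 0.85) and -0.72 ± 0.19 in KO (adjusted p = 0.0065).

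Bgn, known also as a ligand of Toll-like receptors when set free from the matrix, and Omd, best known from bone, were called in none of the 4 comparisons of pretreated with naive cells. Bgn had 819 and 675 CPM in WT naive and 668 and 622 CPM in WT pretreated libraries at 0 h, and 1052 and 1017 CPM against 948 and 1035 CPM in KO libraries. Its fitted change was -0.05 ± 0.043 in WT (edgeR adjusted p = 0.46) and -0.05 ± 0.042 in KO (adjusted p = 0.48), the narrowest errors in the family. At 2 h, Bgn had 617 and 634 CPM against 639 and 567 CPM in WT, and 924 CPM against 917 and 930 CPM in KO. Omd lay between 1.06 and 1.81 CPM over all 15 libraries, and the ranges of naive and pretreated libraries overlapped at 0 h in both genotypes. The change of Omd at 0 h was 0.25 ± 0.26 in WT (adjusted p = 0.55) and 0.07 ± 0.26 in KO (adjusted p = 0.90). Its neighbours Ogn in both genotypes and Aspn in KO cells fell, as given above.

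**Figure D2:**
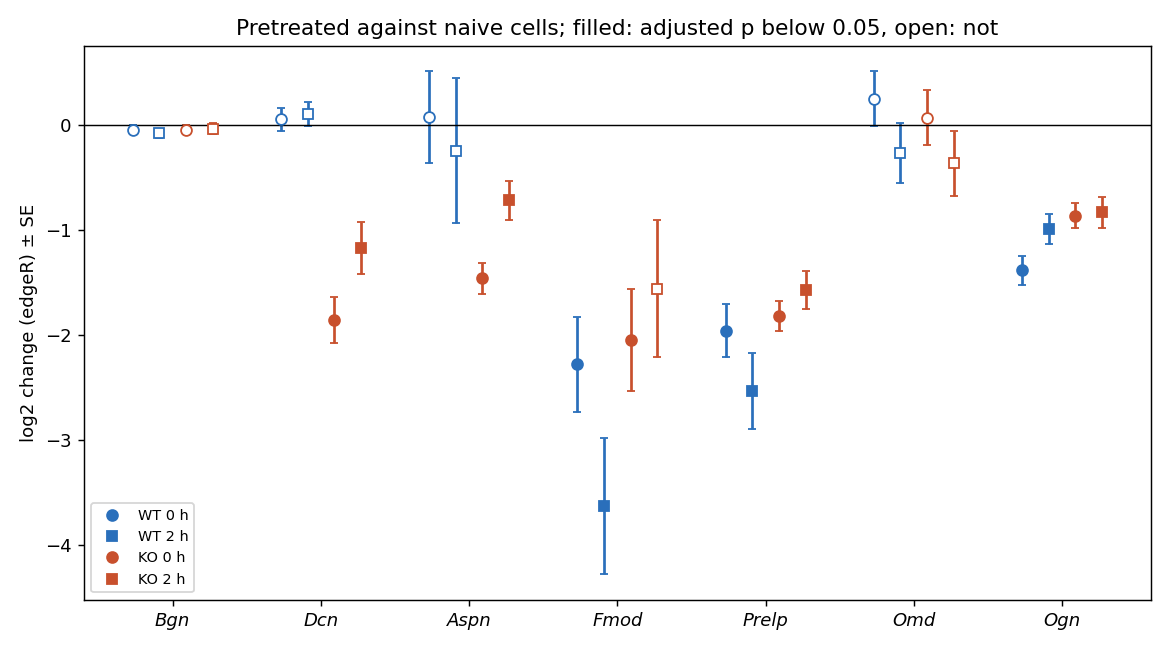
Fitted log2 change of pretreated against naive cells (vertical axis, points with SE bars) for 7 members in WT (blue) and KO (red) at 0 h (circles) and 2 h (squares), with filled points for adjusted p below 0.05. Lum is left out because WT cells held at most 2 counts in a library. Fmod, Prelp and Ogn lie below 0 in both genotypes, Dcn is near 0 in WT and at -1.86 and -1.17 in KO, and Bgn stays within 0.1 of 0.

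At 2 h the counts of called members were 3 of 8 in WT, all lower, where 11.8% of genes were called lower and 13.2% higher (25.0% in all), and 5 of 8 in KO, all lower, where 7.61% of genes were called lower and 11.2% higher (18.8% in all). The KO count depended on 1 library. Without KO pretreated 2 h replicate 1, only Prelp and Ogn were called, with edgeR adjusted p of 0.051 for Dcn, 0.073 for Lum and 0.22 for Aspn, and the count was also 2 with DESeq2. In each KO pretreated group, at 0 h and at 2 h, replicate 2 had the higher CPM for 8 of 8 members. CPM leaves out the TMM factors, which at 0 h were 0.980 for replicate 1 and 1.12 for replicate 2. On the fitted scale this lowers replicate 2 against replicate 1. At 2 h the factors were 0.934 and 0.946. The order of the replicates over all genes was not counted. The comparisons at 0 h and at 2 h use different libraries, while the comparison of pretreated with naive cells and those of KO with WT cells share libraries.

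Comparing the genotypes within a condition asks how the family differs between KO and WT libraries. The labels do not say how many embryos or cultures each genotype came from, and the part of NSD2 loss in these differences was not tested. Dcn was lower and Aspn, Lum, Prelp and Bgn were higher in KO cells in each of the 4 conditions, and Ogn was higher in 3 of them. At naive 0 h, 5 of 8 members were called (4 higher, 1 lower), where 67.1% of all genes tested were called, 34.3% higher and 32.7% lower. At naive 2 h, pretreated 0 h and pretreated 2 h, 6 of 8 were called (5 higher, 1 lower), where 61.2%, 64.7% and 66.3% of genes were called, 32.3%, 32.8% and 35.6% of all genes higher and 28.8%, 31.8% and 30.7% lower. Over the mean of the 4 conditions, 6 of 8 were called (5 higher, 1 lower), where 79.4% of genes were called, 41.3% higher and 38.2% lower. A share of 6 in 8 therefore stands near the background of these comparisons, in which most genes differed. The members' median change over the 4 conditions was 0.59, with Lum at its ratio of counts, beside 0.02 over all genes tested.

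Dcn and Aspn, both of class I, shifted in opposite directions. Dcn had 16.3 to 20.6 CPM over the 8 WT libraries and 1.17 to 4.76 CPM over the 7 KO libraries, with no overlap. It was lower in KO, with fitted changes of -2.09 ± 0.13 at naive 0 h (4.25-fold, edgeR adjusted p = 2.0e-14), -2.05 ± 0.18 at naive 2 h, -3.99 ± 0.17 at pretreated 0 h (15.9-fold, adjusted p = 1.4e-18) and -3.32 ± 0.15 at pretreated 2 h (10.0-fold). Aspn had 0.151 to 0.697 CPM in WT libraries and 4.13 to 15.2 CPM in KO libraries, again apart. It was higher in KO by 4.60 ± 0.22 at naive 0 h (24.2-fold, adjusted p = 3.7e-17), 5.09 ± 0.33 at naive 2 h, 3.07 ± 0.27 at pretreated 0 h and 4.62 ± 0.33 at pretreated 2 h. Within libraries, there were 0.00821 to 0.0343 Aspn counts for each Dcn count in WT and 2.20 to 4.26 in KO. Among the counts of Dcn and Bgn together, the share of Dcn was 2.45% to 3.14% in WT, 0.395% to 0.465% in KO naive and 0.123% to 0.269% in KO pretreated libraries. These ratios compare 2 genes in the same library, so they do not depend on library scaling.

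Lum was called higher in KO in each condition by edgeR. At naive 0 h there were 88 counts in KO against 0 in WT (edgeR adjusted p = 1.4e-08). With WT set at 3 counts over the group the fold was 26.9, and the 95% counting interval of the ratio began at 21.4. At naive 2 h, 36 counts stood against 1, a ratio of 66.8 after scaling with a 95% counting interval of 11.2 to 2709, and at pretreated 0 h 17 against 2, a ratio of 7.23 (1.72 to 64.5). At pretreated 2 h, 21 counts stood against 0. With WT set at 3 counts the fold was 5.15, and the 95% counting interval began at 3.83. The KO level stayed low, at most 1.46 CPM. The call at pretreated 0 h (adjusted p = 0.018) was lost without WT pretreated 0 h replicate 2 (0.16), without KO pretreated 0 h replicate 2 (0.096), and without the 3 libraries low in Rn45s and Lars2 (0.095).

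Prelp was higher in KO at every condition, by 2.03 ± 0.15 at naive 0 h (4.07-fold, edgeR adjusted p = 6.0e-13), 2.30 ± 0.21 at naive 2 h, 2.16 ± 0.25 at pretreated 0 h and 3.25 ± 0.31 at pretreated 2 h. WT libraries spanned 0.183 to 3.63 CPM and KO libraries 2.65 to 14.2 CPM, so KO pretreated libraries overlapped with WT naive ones while libraries of the same condition did not overlap. Ogn was not called at naive 0 h (0.20 ± 0.12, adjusted p = 0.13) and was higher in KO by 0.64 ± 0.15 at naive 2 h (adjusted p = 0.00052), 0.72 ± 0.14 at pretreated 0 h (adjusted p = 5.6e-05) and 0.80 ± 0.14 at pretreated 2 h (adjusted p = 1.6e-05). Fmod was not called in any condition, with changes from -0.71 ± 0.51 at naive 2 h to 1.35 ± 0.88 at pretreated 2 h (adjusted p = 0.23 and 0.18). At naive 0 h its libraries did not overlap, 1.87 and 1.81 CPM in WT against 1.13 and 1.12 CPM in KO, with a change of -0.61 ± 0.34 (adjusted p = 0.11). Omd was not called either, with changes between -0.24 ± 0.26 and 0.30 ± 0.32.

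Bgn had 567 to 819 CPM in WT and 917 to 1052 CPM in KO libraries, with no overlap. It was higher in KO by 0.54 ± 0.043 at naive 0 h (1.45-fold, edgeR adjusted p = 3.0e-12), 0.61 ± 0.051 at naive 2 h, 0.54 ± 0.043 at pretreated 0 h and 0.65 ± 0.043 at pretreated 2 h (1.57-fold). Bgn included, the summed level of the 8 members was 603 to 888 CPM in WT and 945 to 1134 CPM in KO. Without Bgn the sums were 30.6 to 69.6 CPM and 27.5 to 82.0 CPM, which overlap. Bgn is X-linked, and the 4 tested Y-linked genes were all called higher in KO. Xist was at 0.0582 to 0.288 CPM in WT and 0.0227 to 0.172 CPM in KO. The Y-linked Ddx3y had 26.3 to 32.4 CPM in WT and 58.8 to 80.5 CPM in KO, Kdm5d 12.2 to 18.4 against 40.6 to 49.2 CPM, Uty 10.1 to 15.2 against 30.7 to 43.7 CPM and Eif2s3y 10.3 to 14.6 against 25.1 to 30.4 CPM. Their part in the Bgn difference was not tested.

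**Figure D3:**
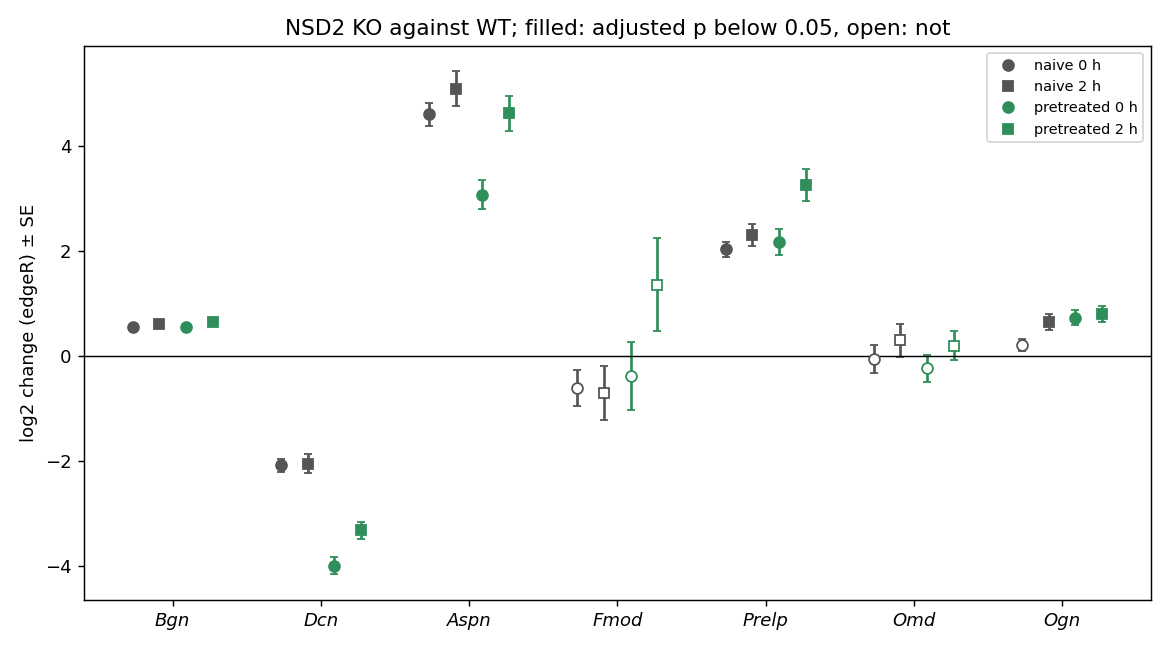
Fitted log2 change of KO against WT cells (vertical axis, points with SE bars) for 7 members in naive (grey) and pretreated (green) cells at 0 h (circles) and 2 h (squares), with filled points for adjusted p below 0.05; Lum is left out because it was at or near 0 counts in WT. Dcn lies from -2.05 to -3.99, Aspn from 3.07 to 5.09 and Prelp from 2.03 to 3.25, while Bgn keeps to 0.54 to 0.65.

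Markers of other cell types moved with the genotype. Summed cartilage and bone markers reached 38.3 to 71.7 CPM in WT and 193 to 378 CPM in KO, and over the mean of conditions 1 of the 4 tested was called, where 79.4% of all genes were. This was Col2a1, at 0.996 to 1.97 CPM in WT and 140 to 328 CPM in KO. In single conditions the calls for these 4 were 3 higher in KO in naive cells at 0 h, 1 higher and 2 lower in naive cells at 2 h, 2 higher in pretreated cells at 0 h, and 1 higher and 1 lower in pretreated cells at 2 h. The defining markers Ibsp and Acan were at 0 and at most 0.0481 CPM. Tendon markers, a list that itself holds Fmod, summed to 24.7 to 38.7 CPM in WT and 26.6 to 51.6 CPM in KO. Tnmd, a tendon gene, had at most 0.0368 CPM in WT and 0.806 to 3.04 CPM in KO, and Thbs4 was at 0 in WT. Summed epithelial (17.6 to 30.7 against 55.8 to 71.1 CPM), adipocyte (3.39 to 5.38 against 10.3 to 14.7 CPM) and nerve and glia markers (16.1 to 24.2 against 52.0 to 74.6 CPM) lay higher in every KO library. Summed macrophage and blood markers (13.8 to 21.2 against 5.38 to 9.07 CPM, with Emr1, Tyrobp and Hbb-b1 at 0), endothelial markers (1.13 to 2.16 against 0.595 to 1.46 CPM, with Emcn at 0) and smooth muscle markers (1574 to 2248 against 857 to 1370 CPM) lay lower or overlapped. The smooth muscle sum was mostly Acta2, at 1511 to 2174 CPM in WT and 790 to 1297 CPM in KO. Of the 4 tested smooth muscle markers, Acta2 and Cnn1 were lower and Des and Smtn higher in KO over the mean of conditions. With pretreatment at 0 h, 5 of 9 fibroblast markers fell in each genotype and 1 rose in WT and 2 in KO, where 24.0% of all genes were called in WT and 21.7% in KO. On the same comparison 3 of the 4 tested tendon markers fell in KO, Fmod among them. The part of any of these in the members' differences was not tested.

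After 2 h with interferon beta few members were called, although the treatment itself was plain in the interferon-stimulated gene Usp18 (5.91 ± 0.18 in WT and 7.49 ± 0.10 in KO naive cells). Errors were wide for members with few counts, at 0.86 for Fmod and 0.57 for Aspn in WT pretreated cells. A member not called may therefore have changed. Whether the counts below differ from the share over all genes was not tested. In WT naive cells Prelp (-0.66 ± 0.21, edgeR adjusted p = 0.019) and Ogn (-0.42 ± 0.13, adjusted p = 0.012) fell, 2 of 8, where 30.6% of genes were called, 15.6% lower. In KO naive cells Aspn fell (-0.52 ± 0.17, adjusted p = 0.018), 1 of 8, where 36.2% of genes were called, 17.2% lower and 19.1% higher. In WT pretreated cells Prelp fell (-1.23 ± 0.44, adjusted p = 0.042), 1 of 8, where 22.7% of genes were called, 10.5% lower and 12.2% higher. In KO pretreated cells Dcn rose (0.70 ± 0.25, adjusted p = 0.036), 1 of 8, where 31.5% of genes were called, 17.9% higher and 13.6% lower. The Dcn libraries overlapped, at 1.17 and 1.29 CPM before and 1.29 and 2.51 CPM after. Each of these counts ranged from 0 to 2 when libraries were left out. Scaled by library totals alone, which moved the median of all genes by -0.25 in WT naive, -0.21 in KO naive and -0.16 in KO pretreated cells, the counts were 3 in WT naive, 2 in KO naive and 0 in KO pretreated cells. In WT naive cells 10.5% of the called genes were then higher, in place of 48.9%.

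Likeness of pattern was measured by Pearson's r of log2 CPM over the 15 libraries, which share depth, scaling and the genotype difference, and is given as a description. Unlike the CPM given elsewhere, these values were scaled with the TMM factors over the genes tested. Over all libraries Dcn was most like Foxp2 (r = 0.99), Lum like Colec12 (0.97), Prelp like Scara5 (0.99), Aspn like Bscl2 (0.99), Fmod like Ggcx (0.92), Omd like AY074887 (0.87) and Bgn like Asph (r = 0.996). After subtracting each genotype's mean, the nearest genes were Aox3 for Dcn (0.94), Foxp2 for Lum (0.91), Sepp1 for Fmod (0.95), Tgfbi for Prelp (0.99), Maged2 for Ogn (0.97), Sybu for Aspn (0.89), Capn5 for Bgn (0.90) and AY074887 for Omd (0.88). On that scale Prelp, Ogn and Fmod were alike, with r = 0.95 for Prelp and Ogn, 0.90 for Fmod and Prelp and 0.89 for Fmod and Ogn. Dcn and Lum, neighbours on chromosome 10, had r = 0.87 within genotypes and -0.69 over all libraries. Lum had at most 2 counts in any WT library, so its values within genotypes rest mainly on KO libraries. Omd had at most 0.27 with any other member within genotypes.

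Of 10 other members of the wider family, Kera, Epyc, Optc and Nyx were too low to be tested, with no more than 0.241 CPM in any library. Chadl, a chondroadherin-like collagen-binding protein, had 0 to 0.120 CPM in WT and 0.703 to 1.77 CPM in KO libraries (edgeR adjusted p = 1.1e-13 over the mean of conditions). Podn, podocan, was lower in KO, with a change of -1.41 ± 0.23 (adjusted p = 2.5e-06) and fell with pretreatment in WT (-0.89 ± 0.31, adjusted p = 0.037), while its change in KO was -0.97 ± 0.46 (adjusted p = 0.14). Podnl1 and Tsku were higher in KO by 0.26 ± 0.056 and 0.12 ± 0.035. Over the mean of conditions 3 of the 6 tested relatives were thus called higher and 1 lower in KO, where 79.4% of all genes were called. Chad and Ecm2, the latter next to Aspn, were not called in the comparison of KO with WT or of pretreated with naive cells at 0 h. By edgeR, 1 of the 6 fell with pretreatment at 0 h in WT and 0 of 6 changed in KO. Of all genes tested, 24.0% were called in WT, 11.4% lower, and 21.7% in KO. By DESeq2, 0 of the 6 were called in each. In KO the unadjusted edgeR p was below 0.05 for 3 of the 6.

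Genes whose products build, cleave, bind or sit beside these proteoglycans were counted from lists. Of all genes tested, 11.4% fell and 12.6% rose with pretreatment at 0 h in WT, and 10.6% fell and 11.1% rose in KO. Counts are for 0 h unless 2 h is named. Of 13 fibrillar and fibril-associated collagens, the partners of the family in the matrix, 10 fell with pretreatment in WT and 8 in KO, with 0 and 1 higher, and median changes of -0.44 and -0.24. At 2 h, 11 fell and 0 rose in WT (median -0.50), where 11.8% of all genes fell. In KO at 2 h, 3 fell and 4 rose (median 0.016), where 7.61% of all genes fell and 11.2% rose. Col3a1 fell, by a log2 change of -1.02 ± 0.073 in WT and -0.50 ± 0.068 in KO, and was higher in KO than WT by 1.76 ± 0.037. Of 7 tested proteases that cleave the family, 6 fell in each genotype (medians -0.39 and -0.30), among them Mmp2 at -0.39 ± 0.042 and -0.27 ± 0.042. At 2 h, 3 of the 7 fell in each genotype (medians -0.02 and -0.22), with 0 higher. Of 20 ligands and receptors, 6 fell and 2 rose in each, and the TGF-β receptor gene Tgfbr2 fell, at -0.51 ± 0.047 in WT and -0.36 ± 0.049 in KO. Of 17 collagen processing and crosslinking genes, 5 fell and 1 rose in WT, with Lox at -0.59 ± 0.047, and 4 fell and 4 rose in KO. At 2 h, 5 fell and 2 rose in WT, and 0 fell and 5 rose in KO. Of 9 tendon and cornea regulators, 1 fell in WT, Tgfbi at -0.73 ± 0.082, and 6 in KO, among them Tgfbi at -0.64 ± 0.058, Scx at -0.59 ± 0.076 and Tnmd at -1.49 ± 0.27.

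Of 25 tested genes for glycosaminoglycan chains, 3 rose and 3 fell with pretreatment in WT and 2 rose and 4 fell in KO, a share near that of all genes (24.0% called in WT and 21.7% in KO). Among them was Ugdh, which makes the UDP-glucuronate that chains are built from, at 0.38 ± 0.052 and 0.21 ± 0.049. Of 8 keratan sulfate genes, edgeR and DESeq2 called 0 in either genotype, and unadjusted p was below 0.05 for 2 in WT and 1 in KO. Between genotypes, over the mean of conditions, 41.3% of all genes were called higher and 38.2% lower in KO. Of the 25 chain genes 12 were higher and 10 lower in KO. The chondroitin sulfotransferase genes Chst11 (-2.54 ± 0.039), Chst7 (-3.11 ± 0.10) and Ust (-3.00 ± 0.084) were lower and Chst15 (3.33 ± 0.11) higher. Of the keratan sulfate genes 4 were higher and 3 lower, with Chst2 at -2.55 ± 0.098. All 13 collagens were called, 6 higher and 7 lower, and all 7 proteases, 5 higher and 2 lower, among them Adamts9 at 0 to 0.0474 CPM in WT and 6.35 to 14.7 CPM in KO. The receptor genes Tlr2 (3.48 ± 0.11) and Tlr4 (1.25 ± 0.041), through which biglycan signals, were higher in KO. Of 17 other proteoglycans, 10 were higher and 6 lower in KO, with Cspg4 at 3.90 ± 0.043 and Vcan at -0.84 ± 0.023, against 2 higher and 2 lower with pretreatment in WT and 5 higher and 2 lower in KO.

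**Figure D4:**
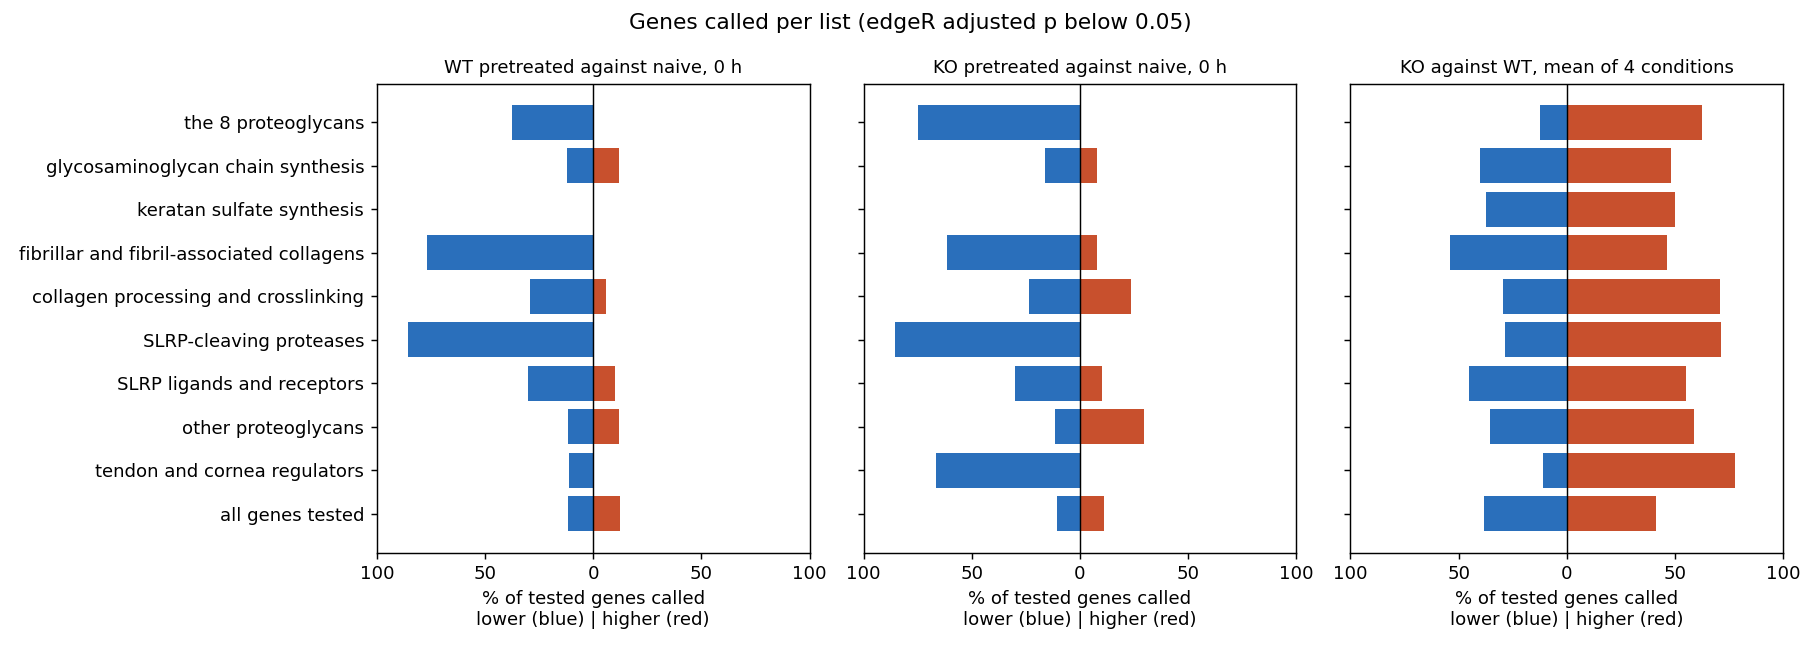
Share of the tested genes of each list called lower (blue bars, to the left) or higher (red bars, to the right), in percent on the horizontal axis, for the 8 proteoglycans, 8 lists of related genes and all genes tested. With pretreatment at 0 h the bars of the proteoglycans and proteases point to the lower side in both genotypes, where 11.4% and 10.6% of all genes were called lower. The collagens do so in WT, while in KO 8 of 13 were lower and 1 higher. In KO against WT most bars reach both sides.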

How the data were processed

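TRIzol-extracted total RNA was prepared on a Mondrian SP and read from both ends on a HiSeq2000, per the labels' protocols. Each library had its own deposited table of raw counts by gene symbol. The submitters' processing notes name bcl2fastq 2.15, STAR 2.5.2b, HTSeq and mm9. Which annotation and strand setting were used is not given in the sources used here, so overlapping genes are uncertain, among them Aspn, Omd and Ogn within Cenpp.

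From the counts, the 5 HTSeq summary lines were left out (35.1% to 41.3% of uniquely aligned reads lay in no gene and 0.393% to 0.496% were ambiguous), and CPM was computed on the gene counts. Genes passing filterByExpr (minimum count 10) were tested in edgeR 4.0.16 under R 4.3.3, in 1 quasi-likelihood model of 8 groups over 15 libraries with TMM factors (0.895 to 1.22) and 7 residual degrees of freedom. The 14 comparisons were interferon against none, pretreated against naive, KO against WT, and 1 genotype difference. KO naive 2 h, with 1 library, was taken to have the spread of the others. Replicate counts differed by more than sampling alone gives (chi-square over its degrees of freedom 1.93 to 4.81 without Rn45s and Lars2).

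The members and lists were chosen with earlier results of these data known. Named genes were the members, the other family members, up to 4 genes of each list with the smallest p in each of 3 comparisons, the genes most like each member in pattern, and Whsc1, Usp18 and sex-linked genes. A fold against a side with no counts is computed against 3 counts for the whole group. It carries no error of its own, so the lower end of the 95% counting interval is given beside it. A ratio with 1 to 3 counts has a 95% interval. These intervals cover counting error only. Exon lengths came from GENCODE M21 (GRCm38) protein-coding transcripts, which may differ from the authors' gene models. Alternatives were RLE size factors, library totals, no filter, DESeq2 1.42.0, a replicate block, a model of the compared groups alone, leaving Rn45s and Lars2 or the 3 libraries low in them out, and leaving out each library. The steps were tested on simulated data holding 100 changed genes of each size. Changes of 1 and 2 log2 units were recovered in 78% and 90% of genes for pretreatment in WT at 0 h (13691 genes, 6.67% of calls false), 80% and 97% in KO (13687 genes, 5.35%), and 86% and 96% for the genotypes compared at naive 0 h (13652 genes, 6.19%). In the data far more genes were called, 24.0%, 21.7% and 67.1% in these comparisons, so the simulated shares may not hold there. Figures were drawn with matplotlib 3.10.9. The gene nearest to Ogn over all libraries is not reported here.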

Additional observations from a re-analysis of the deposited data

Results flagged for a closer look

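The change of Dcn with pretreatment at 0 h differed between KO and WT cells by -1.91 ± 0.24 on the log2 scale (edgeR's quasi-likelihood test, adjusted p = 6.2e-06), and was drawn out because the interaction of genotype and pretreatment passed the threshold. Dcn had 20.6 and 20.3 CPM in WT naive and 18.3 and 18.9 CPM in WT pretreated libraries, against 4.17 and 4.76 CPM in KO naive and 1.17 and 1.29 CPM in KO pretreated libraries. Groups had too few libraries to look for single libraries standing apart.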

How the results depend on the processing

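Counts of called members in the comparisons of pretreated with naive cells held at 3 (WT, 0 h), 6 (KO, 0 h) and 3 (WT, 2 h) under every alternative run. In KO at 2 h, 5 became 2 with DESeq2, 6 with no filter, 6 with the compared groups in the fit, and 2 to 6 when 1 library was left out. Interferon in naive WT cells gave 2 members, 3 with library totals alone, 0 with DESeq2, 1 without the 3 libraries low in Rn45s and Lars2, and 0 to 2 leaving out 1 library. In naive KO cells 1 became 2 with library totals alone, 2 with no filter, 2 with the compared groups in the fit, 2 without the 3 libraries, 0 with DESeq2, and 0 to 2 leaving out 1 library. In pretreated WT cells 1 became 2 with no filter, 0 with the compared groups, 0 without the 3 libraries, and 0 to 2 leaving out 1 library. In pretreated KO cells 1 became 0 with totals, 0 with the compared groups, 0 without the 3 libraries, and 0 to 2 leaving out 1 library. The difference between genotypes gave 1 member, 3 with no filter, 2 with DESeq2, 3 with the compared groups, and 1 to 2 leaving out 1 library. KO against WT stayed between 5 and 7 throughout. Where a count changed, the cause was not tested. Replicate deviations were little correlated between groups (r from -0.018 to 0.064 over 21 pairs, median 0.020, 0 of them over 0.1). Such a check cannot exclude a weak pairing of the samples by replicate number. With a replicate block the difference between genotypes called 2 members, adding Ogn at 0.55 (edgeR adjusted p = 0.021), and the block changed no other call. Of 427 values of single members called in the fit reported or the alternative, 394 kept direction and call, 14 lost and 19 gained the call, and 0 reversed; leaving out 1 library, 745 of 778 kept both and 0 reversed. Scaling by totals alone moved the median of all genes by -0.25 (WT interferon, naive), -0.21 (KO interferon, naive), -0.16 (KO interferon, pretreated), -0.18 (WT pretreatment, 0 h) and 0.16 (genotype difference). It put the share of higher calls at 10.5%, 22.0%, 32.9%, 8.52% and 86.7%, in place of 48.9%, 52.6%, 56.9%, 52.4% and 53.0%, at 39.1% in place of 51.2% for KO pretreatment at 0 h, and at 65.6% in place of 52.9% for WT pretreatment at 2 h. For interferon in pretreated WT cells (53.6%) it was 63.9% without Rn45s and Lars2 and 64.3% with DESeq2, which gave 59.8% for naive WT cells. Depth limits the precision of low members: the libraries of a group together held 0 to 2 counts of Lum in WT and 17 and 21 in the KO pretreated groups, 5 of Fmod in WT pretreated at 2 h, and 12 and 14 of Aspn in WT pretreated and naive cells at 2 h.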
